A study of Mus musculus with 12 samples.

Results

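A set of 44 genes was at least 4-fold higher in both day 3 fractions than in undifferentiated embryonic stem cells (ESCs), and its mean levels in the 2 fractions lay within 1.5-fold of each other. The members were taken from the 22187 loci of the deposited normalised table, of which 18327 carry a gene name. A locus was kept when its mean normalised value was 5 or more in the Eomes-negative fraction (Eo−) and in the Eomes-positive fraction (Eo+), each at least 4 times the ESC mean, and when the larger fraction mean was at most 1.5 times the smaller. Because these means chose the members, the levels below are a description of what was chosen, and calls of members by the whole-table fit are given as counts only, with nothing read from them. All 44 loci hold a protein-coding gene, and 1 of them joins 2 genes, Ackr1 and Cadm3, whose reads cannot be separated.

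The RNA came from an Eomes-EGFP reporter mouse ESC line of C57BL/6 background, in which an EGFP cassette sits at the transcriptional start site of the gene for Eomes, the T-box protein that marks mesendoderm. The 4 ESC libraries are undifferentiated cells at day 0, grown on mouse embryonic fibroblast feeders in medium with leukemia inhibitory factor (LIF). The 4 Eo− and 4 Eo+ libraries are GFP-negative and GFP-positive cells sorted at day 3 from embryoid bodies, which were formed in hanging drops without LIF under a cardiac differentiation protocol. The libraries carry the replicate numbers 1, 2, 5 and 6 in each group, for 4 differentiation sets of 1 ESC line, so that their spread is that of cultures of 1 line and not of animals, and the sort on 1 reporter defines both fractions. Poly(A) RNA was sequenced, and the counts over all loci summed to between 648413022 and 837308168 per library. The lowest count of a member in any library was 207, and a count of 3 corresponds to a normalised value of 0.00359 to 0.00476.

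ESCs kept with LIF resemble the naive epiblast of the blastocyst. When LIF is withdrawn they leave the naive state, pass through a formative state like that of the early post-implantation epiblast, and part of them then switches on Eomes and T and enters the mesendoderm. Both fractions come from the same embryoid bodies, so the comparison of each with ESC holds what the populations share, such as time in culture and loss of LIF, as well as what separates them. The labels were checked against marker genes. Eomes was at 46.5 ± 9.08, 139 ± 22.7 and 536 ± 102 (mean normalised value ± SD, n = 4) in ESC, Eo− and Eo+, all 8 genes of a mesendoderm list were called higher in Eo+ vs Eo−, and 14 of 15 naive pluripotency genes were called lower in each fraction than in ESC (limma, adjusted p of at most 0.05). The Eo− fraction was thus not free of Eomes RNA.

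The thresholds of level and fold were passed by more loci in Eo+ than in Eo−. Of the named loci, 167 passed them in Eo−, 521 passed them in Eo+, and 119 passed them in both. Of these 119, 67 (56.3%) were over 1.5-fold higher in Eo+, 8 (6.72%) were over 1.5-fold higher in Eo−, and the 44 members (37.0%) lay in the window between. A further 402 loci passed in Eo+ only and 48 in Eo− only. In the whole-table limma fit, all 44 members were called higher than ESC in both fractions, where 28.2% of all loci were called higher in Eo−, 33% in Eo+ and 22.1% in both. The counts follow from the rule, and nothing is read from them. Against ESC, the median log2 fold change of the members was 2.37 for Eo− and 2.53 for Eo+, beside 0.01 and -0.02 over all loci tested.

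**Figure D1:**
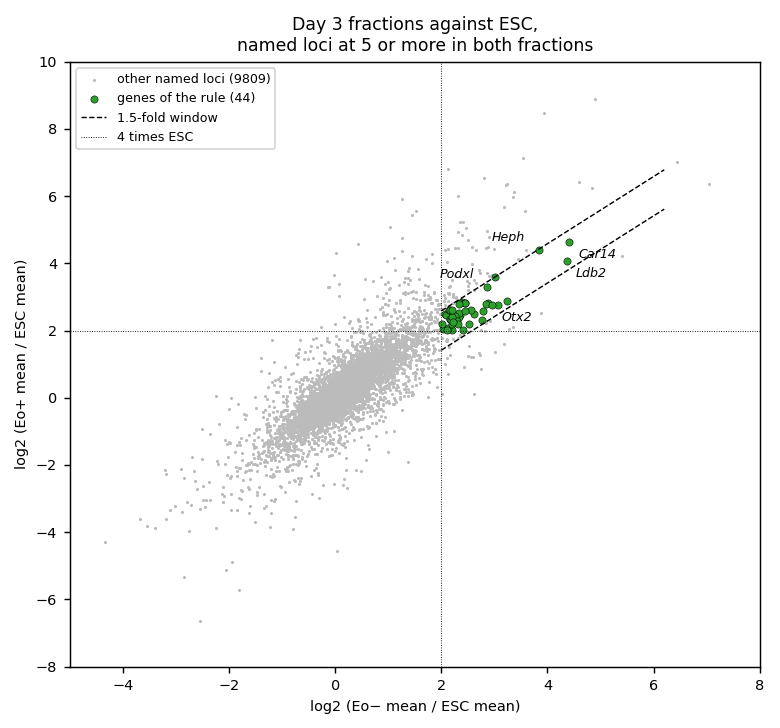
Each point is a named locus with a mean normalised value of 5 or more in both fractions, placed by its log2 ratio of Eo− over ESC (x axis) and of Eo+ over ESC (y axis). The 44 green members lie in the corner above 4 times ESC (dotted lines) and inside the 1.5-fold window (dashed lines), and the remaining loci are grey.

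The lowest and highest ratios to ESC were 4.02 and 21.3 in Eo− and 4.05 and 24.9 in Eo+, with medians of 5.05-fold and 5.69-fold, so that most members lay close to the lower limit. Near the limits, Cxxc4 and Cyp27a1 were the members with the lowest day 3 means, at 5.48 and 5.57 in Eo−, and Calcrl and Tceal3 stayed outside with lower means of 4.86 and 3.88. Gchfr and Sema6a were just inside the fold limit at 4.02-fold and 4.05-fold, and Cldn6 just outside at 3.97-fold. Cldn6, a tight junction claudin of the epiblast, had nearly equal means in the fractions, 231 in Eo− and 229 in Eo+, and missed the rule only by its ESC mean of 57.8. The window was nearly reached by Cxxc4 and Heph, with ratios of 1.495 and 1.492, and was just missed by Hapln1 and 6430573F11Rik with 1.501 and 1.505.

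The starting level was low for most members. The ESC mean was under 1 in 5 members and 5 or more in 14, with a range of 0.424 (Heph) to 27.6 (Podxl) and a median of 2.53. At day 3 the lowest and highest means were 5.48 and 200.1 in Eo− and 5.65 and 272 in Eo+, with medians of 14.4 and 15.6. In 6 members both day 3 means were 50 or more, and in 14 both were under 10. In every member all 8 day 3 libraries lay above all 4 ESC libraries, as the rule makes likely, and 24.1% of all loci were called higher without overlap in Eo− and 28.9% in Eo+. The gap was smallest for Msgn1, whose lowest day 3 library was 1.20 times its highest ESC library.

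**Figure D2:**
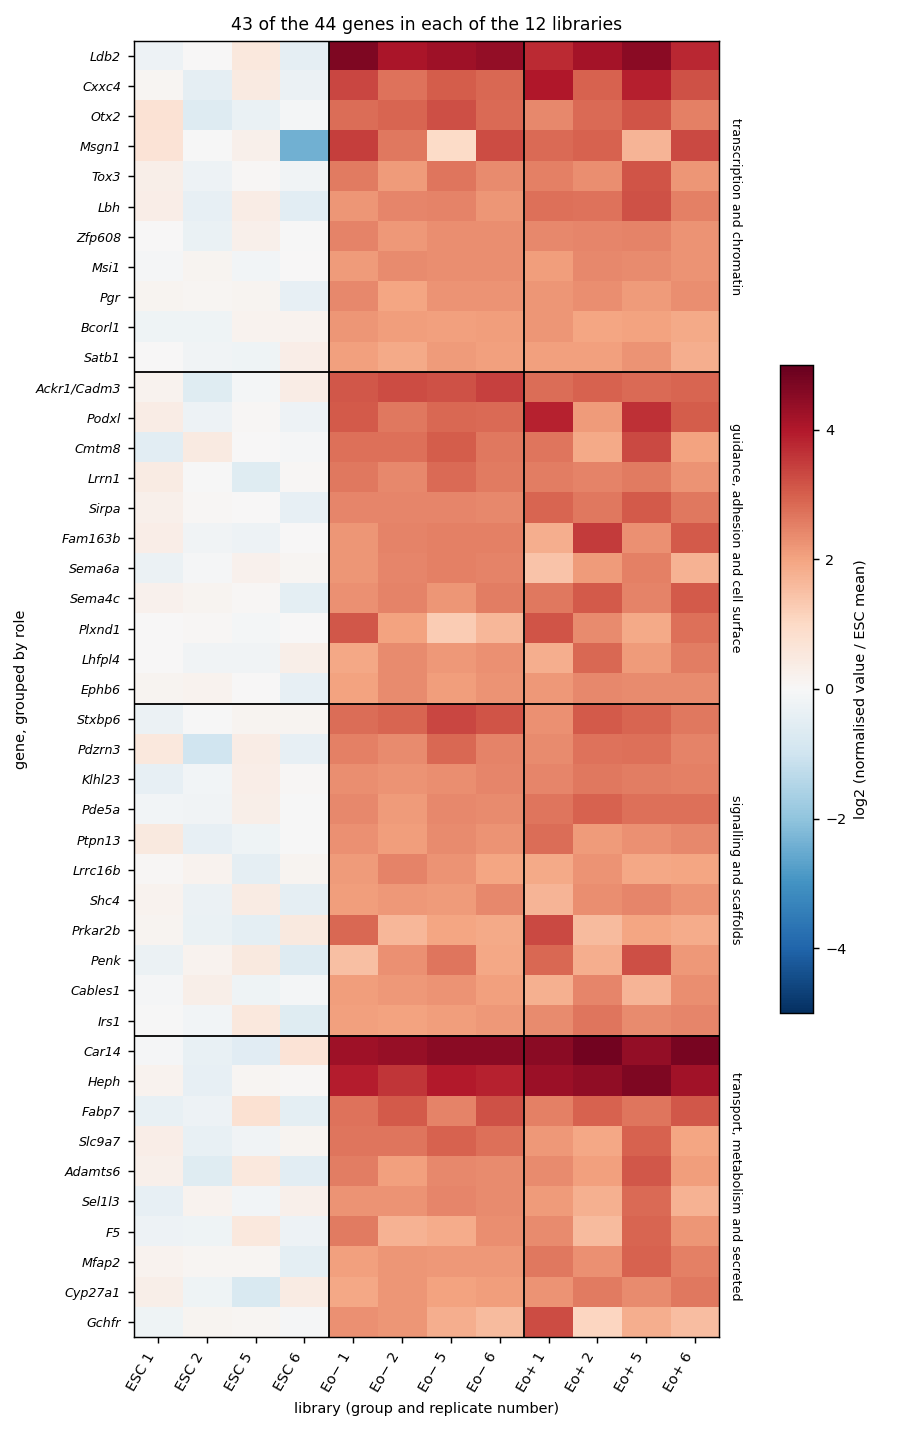
Rows are 43 of the 44 members grouped by role and columns are the 12 libraries, and the colour gives log2 of the normalised value over the member's ESC mean. Ldb2, Car14 and Heph are the darkest rows in both fractions, and Msgn1 is pale in replicate 5 of Eo− and Eo+.

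Sequence before the RefSeq start of 4 members is shown first, since the members were chosen for moving together. RefSeq promoter windows (build GRCm38.p6, 250 bases before to 50 bases after a transcript start) were found for 32 genes at 31 of the 44 loci. The 250 bases before the start are printed 5′ to 3′ on the strand of the gene, with matches to any of 12 searched motifs in capitals. Car14 has the highest ratio to ESC, Otx2 is the transcription factor with the highest level per kilobase, Sema4c starts beside an antisense locus described below, and Msgn1 is the member best known from mesoderm.
Car14 (chr3:95904686-95904935, minus strand): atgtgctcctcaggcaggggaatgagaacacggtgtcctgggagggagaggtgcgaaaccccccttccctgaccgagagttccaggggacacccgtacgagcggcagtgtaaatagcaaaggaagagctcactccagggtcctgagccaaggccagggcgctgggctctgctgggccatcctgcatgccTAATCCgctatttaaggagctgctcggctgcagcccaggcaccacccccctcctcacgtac
Otx2 (chr14:48667645-48667894, minus strand): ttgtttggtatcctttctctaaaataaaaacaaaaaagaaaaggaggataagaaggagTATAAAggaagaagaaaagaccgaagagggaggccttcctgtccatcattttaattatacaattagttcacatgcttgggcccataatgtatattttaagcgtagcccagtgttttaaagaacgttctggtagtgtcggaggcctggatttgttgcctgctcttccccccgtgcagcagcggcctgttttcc
Sema4c (chr1:36558382-36558631, minus strand): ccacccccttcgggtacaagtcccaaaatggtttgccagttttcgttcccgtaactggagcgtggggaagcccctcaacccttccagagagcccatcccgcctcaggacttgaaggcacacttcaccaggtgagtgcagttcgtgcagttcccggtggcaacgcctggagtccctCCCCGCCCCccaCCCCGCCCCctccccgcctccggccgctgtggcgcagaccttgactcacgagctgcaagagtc
Msgn1 (chr12:11208949-11209198, minus strand): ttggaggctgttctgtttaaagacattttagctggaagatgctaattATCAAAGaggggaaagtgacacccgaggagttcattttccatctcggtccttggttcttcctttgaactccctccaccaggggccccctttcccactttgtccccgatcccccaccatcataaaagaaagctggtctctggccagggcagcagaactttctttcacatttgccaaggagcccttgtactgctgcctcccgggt
The capitals mark a bicoid-type homeobox motif (TAATCC) from 61 to 56 bases before the Car14 start, a TATA box (TATAAA) from 192 to 187 bases before the Otx2 start, and 2 GC boxes (GGGGCGGGG, here on the other strand as CCCCGCCCC) in the last 75 bases before the Sema4c start. In Msgn1 they mark a TCF/LEF motif (CTTTGAT, here on the other strand as ATCAAAG) from 203 to 197 bases before the start. These distances count from the RefSeq start. The assembled locus began upstream of that start, by 6 bases in Car14, 165 in Otx2, 16 in Sema4c and 1540 in Msgn1. The printed Msgn1 bases, with the TCF/LEF motif, and the last 165 printed Otx2 bases thus lie inside the assembled locus.

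Over both strands of the 300-base windows, the shares of member windows with a motif were compared with those of all windows. A CCAAT box (CCAAT) was in 12 of 32 member windows (37.5%) and in 37.8% of 11837 windows of tested loci, a GC box in 7 (21.9%) and 19.8%, and a TATA box in 4 (12.5%) and 8.53%. The TCF/LEF motif was in 1 window (3.12%, Msgn1) and in 2.59% of all, the bicoid-type homeobox motif in 2 (Car14 and Cadm3) and in 5.92%, and an ETS motif (CCGGAAG) in 2 (Ephb6 and Pde5a) and in 14.3%. A SMAD-type palindrome (GTCTAGAC) was in the Pgr window only among the members, and in 0.161% of all windows. No member window held the octamer (ATGCAAAT), the T-box half-site (AGGTGTG), the forkhead motif (TGTTTAC), the NRF1 motif (CGCATGCG) or the hypoxia response motif (ACGTGC), which were in 1.42%, 4.89%, 2.50%, 3.09% and 7.65% of all windows. These are letter matches in short windows and say nothing of binding. Each window is that of the RefSeq start nearest to the assembled start. This RefSeq start lay 38347 bases away in Pde5a, 34192 in Ackr1 and 24953 in Stxbp6. The median GC content was 66.5% in the member windows and 60% in all, and the median ratio of observed to expected CpG was 0.658 and 0.704, where 11 member windows (34.4%) and 43.4% of all exceeded 0.75.

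Members that act in the nucleus or on RNA were Otx2, Msgn1, Tox3, Zfp608, Satb1, Bcorl1, Pgr, Ldb2, Lbh, Cxxc4 and Msi1. Otx2 (chr14:48653748-48667809, mm10), a bicoid-type homeobox factor of the formative epiblast and later of the forebrain, had normalised values of 37.5, 14.5, 17.9 and 21.0 in ESC, 157, 173, 214 and 163 in Eo−, and 120.4, 161, 203 and 131 in Eo+ (replicates 1, 2, 5 and 6 in this order, here and below). The Eo− value exceeded the Eo+ value of the same set in all 4 sets, although the groups overlapped. Per kilobase of exon, Otx2 had the highest day 3 level of the members, 46.1, followed by Car14 with 41.8 and Podxl with 40.4. Otx2 was 1 of 18 genes of a formative and primed epiblast list. Of the other 17, 9 were called higher in both fractions, beside 22.1% of all loci. Against ESC, 13 of them were called higher and 1 lower for Eo−, and 9 higher and 6 lower for Eo+. Of all loci, 28.2% were called higher for Eo− and 33% for Eo+. Between the fractions, 3 of the 17 were called higher and 10 lower in Eo+, beside 20% and 22.8% of all loci. Of the list's other genes, Fgf5, a ligand of the formative epiblast, stood at 14.7, 114 and 185 in ESC, Eo− and Eo+. Dnmt3b, a DNA methyltransferase, stood at 470, 2062 and 760. Each lay outside the 1.5-fold window. Otx1, the other gene of the Otx pair, was far lower, with means of 0.483, 1.035 and 3.26.

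Msgn1 (chr12:11206627-11210488), a basic helix-loop-helix factor of the presomitic mesoderm, had values of 3.72, 2.29, 2.73 and 0.433 in ESC, 24.9, 14.1, 4.47 and 22.1 in Eo−, and 16.3, 17.5, 7.46 and 22.7 in Eo+. Its group means were nearly equal, 16.4 ± 9.19 in Eo− and 16 ± 6.34 in Eo+, but replicate 5 was the lowest library of both fractions and replicate 6 the lowest of ESC. In set 1 the Eo+ to Eo− ratio was 0.653 and in set 5 it was 1.67, both outside the 1.5-fold window. The related mesoderm factors differed between the fractions. Mesp1, which marks early cardiac mesoderm, had means of 0.385, 5.92 and 137, and Tbx6, a T-box factor of paraxial mesoderm, had means of 0.769, 5.72 and 21.1, and both were called higher in Eo+ vs Eo− (limma log2 fold changes of 4.57 and 1.77, adjusted p = 5.98e-05 and 0.00277).

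Ldb2 (chr5:44472112-44800900), a LIM domain binding cofactor, had values of 0.358, 0.429, 0.619 and 0.310 in ESC, 10.9, 7.25, 8.05 and 9.12 in Eo−, and 5.63, 7.70, 9.66 and 5.89 in Eo+. It rose from one of the lowest ESC levels to 20.6 times ESC in Eo− and 16.8 times in Eo+, with Eo− higher in sets 1 and 6 and Eo+ higher in sets 2 and 5. Its paralogue Ldb1, which is expressed in most cells, was at 214, 189 and 187 and was not called in any comparison. Cxxc4, a CXXC zinc finger protein that inhibits Wnt signalling, had values of 0.727, 0.504, 0.939 and 0.562 in ESC, 6.84, 4.43, 5.58 and 5.05 in Eo−, and 11.1, 5.28, 10.1 and 6.24 in Eo+. Replicates 1 and 5 of Eo+ stood above all Eo− libraries and replicates 2 and 6 within their range.

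Msi1 (chr5:115429599-115455698), an RNA-binding protein of neural and epithelial progenitors, was among the most even members. Its values were 12.9, 14.6, 12.1 and 13.6 in ESC, 58.8, 68.6, 66.3 and 67.2 in Eo−, and 56.0, 69.9, 68.7 and 62.6 in Eo+, and the ratio of Eo+ to Eo− lay between 0.932 and 1.035 in the 4 sets. Msi2, its paralogue, was at 69.8, 59.7 and 70.4. Satb1, a chromatin organiser that binds AT-rich DNA, had values of 7.04, 6.04, 5.89 and 8.56 in ESC, 28.7, 25.5, 29.8 and 28.2 in Eo−, and 28.4, 28.5, 32.8 and 24.2 in Eo+. Bcorl1, a corepressor of the Polycomb-linked BCOR type, went from 6.52 ± 0.989 in ESC to 28.0 ± 1.42 in Eo− and 26.5 ± 2.49 in Eo+, and its relative Bcor from 39.7 to 76.4 and 73.1. Pgr, the progesterone receptor, went from 1.46 ± 0.2503 in ESC to 6.85 ± 0.853 in Eo− and 6.94 ± 0.509 in Eo+ at the lowest day 3 level per kilobase of all members, 0.495. Tox3, an HMG-box factor, went from 1.88 ± 0.327 in ESC to 10.3 ± 1.67 in Eo− and 11.3 ± 3.54 in Eo+, Lbh, a transcriptional cofactor of heart and limb bud, from 5.96 ± 1.86 in ESC to 30.3 ± 2.88 in Eo− and 42.1 ± 8.66 in Eo+, and Zfp608, a zinc finger factor, from 7.80 ± 1.30 in ESC to 39.2 ± 3.51 in Eo− and 41.3 ± 2.80 in Eo+.

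**Figure D3:**
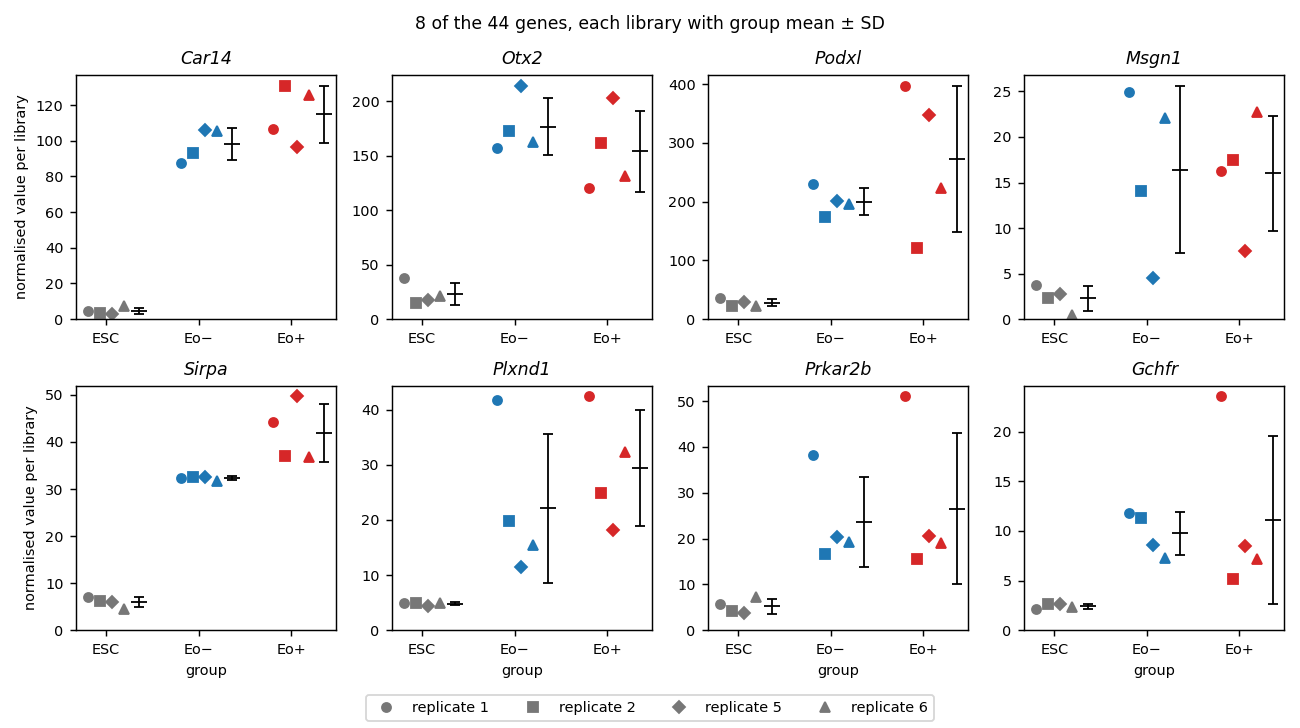
Points are the normalised values of each library for 8 members, with the replicate number as symbol, and the black bars are the group mean ± SD of 4 libraries. The Sirpa libraries of Eo− nearly coincide, Podxl is spread in Eo+, Msgn1 is low in replicate 5 of both fractions, and Plxnd1 and Prkar2b are high in replicate 1 of both.

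Cell surface members included ligands and receptors of axon and vessel guidance (Sema4c, Sema6a, Plxnd1 and Ephb6) and adhesion or membrane proteins (Podxl, Sirpa, Lrrn1, Cadm3 with Ackr1, Lhfpl4, Cmtm8 and Fam163b). Podxl (chr6:31519386-31564232), a sialomucin found on pluripotent cells, podocytes and vessels, was the highest member in both fractions by normalised value. It had 35.4, 23.0, 29.0 and 23.1 in ESC, 229.6, 173, 201 and 197 in Eo−, and 398, 121, 347 and 223 in Eo+. The Eo− libraries were close together and the Eo+ libraries lay on both sides of them, with replicate 2 lowest. Sirpa (chr2:129592697-129633236), an inhibitory receptor for CD47, had 7.11, 6.16, 6.00 and 4.496 in ESC, 32.3, 32.5, 32.6 and 31.6 in Eo−, and 44.2, 37.0, 49.7 and 36.8 in Eo+. All Eo+ libraries lay above all Eo− libraries, whose coefficient of variation of 1.36% was the lowest of any member in any group. Cd47 itself had means of 9.43, 18.8 and 23.3 and was called higher in both fractions (log2 fold changes of 0.98 in Eo− and 1.27 in Eo+, adjusted p = 0.00104 and 7.05e-05).

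Sema4c (chr1:36548642-36558397), a membrane semaphorin that binds B-type plexins, had 9.18, 8.80, 8.30 and 5.78 in ESC, 39.4, 44.8, 37.3 and 47.1 in Eo−, and 49.6, 67.4, 45.3 and 67.8 in Eo+, with Eo+ higher in all 4 sets. Sema6a (chr18:47235598-47369324), a membrane semaphorin that binds A-type plexins, had 21.1, 25.1, 29.6 and 27.4 in ESC, 117, 139.7, 148 and 145 in Eo−, and 69.2, 114, 149 and 85.8 in Eo+, and was higher in Eo− in 3 of 4 sets. Plxnd1 (chr6:115954810-115995005), the plexin receptor of class 3 semaphorins in endothelium, had 4.96, 5.00, 4.46 and 4.93 in ESC, 41.8, 19.8, 11.5 and 15.4 in Eo−, and 42.5, 24.9, 18.1 and 32.3 in Eo+. Replicate 1 was the highest library of both fractions, at about the same level, and the coefficient of variation of 61.3% was the largest of any member in Eo−. Ephb6, an Eph receptor without kinase activity, went from 2.53 ± 0.438 in ESC to 11.5 ± 1.21 in Eo− and 12.7 ± 0.876 in Eo+.

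Other guidance genes were mostly called higher than ESC. A list of 22 guidance receptors and ligands holds Sema6a, and also families without a member, such as Slit and Robo. Of the other 21, 12 were called higher and 5 lower than ESC for Eo−, and 16 higher and 1 lower for Eo+. In both fractions 12 were called higher. For Eo−, Eo+ and both, 28.2%, 33% and 22.1% of all loci were called higher, as given above. Of named protein-coding loci, 31.7%, 37.7% and 25.8% were. Between the fractions, 13 were called higher and 0 lower in Eo+, beside 20% and 22.8% of all loci. The protein-coding shares were 23.9% and 21.1%. The median log2 fold change of these 21 was 0.70 for Eo− and 1.63 for Eo+, against 0.01 and -0.02 over all loci. Sema6d, of the same semaphorin class as Sema6a, had means of 0.694, 3.28 and 41.4, and Plxna2 4.92, 10.6 and 88.3. Plxnb1 and Plxnb2, plexins of the type that binds Sema4c, had nearly the same means in both fractions, 26.2, 79.1 and 80.7 for Plxnb1 and 51.5, 96.8 and 112 for Plxnb2. Ephb4 likewise had similar means in the fractions, 85.9 and 91.5, from 34.0 in ESC, below the 4-fold limit.

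Among the adhesion proteins, the joined locus of Ackr1, a chemokine scavenger of red cells and venules, and Cadm3, a nectin-like adhesion molecule, had 0.944, 0.540, 0.770 and 1.08 in ESC, 7.08, 7.92, 7.61 and 9 in Eo−, and 5.76, 6.396, 5.85 and 6.29 in Eo+. All Eo− libraries lay above all Eo+ libraries. Lrrn1, a leucine-rich repeat membrane protein, went from 1.51 ± 0.419 in ESC to 9.34 ± 1.21 in Eo− and 8.49 ± 0.859 in Eo+. Cmtm8, a MARVEL domain protein, went from 1.51 ± 0.405 in ESC to 10.5 ± 1.28 in Eo− and 9.07 ± 4.36 in Eo+, Fam163b from 1.32 ± 0.247 in ESC to 7.17 ± 0.673 in Eo− and 9.24 ± 4.6 in Eo+, and Lhfpl4, a partner of GABA receptors, from 2.03 ± 0.320 in ESC to 9.31 ± 1.13 in Eo− and 10.8 ± 3.42 in Eo+. In Fam163b, replicates 2 and 6 of Eo+ stood above all Eo− libraries, replicate 1 below them and replicate 5 among them.

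Signalling and scaffold members covered receptor adaptors (Irs1 and Shc4), cyclic nucleotide signalling (Pde5a and Prkar2b), a phosphatase (Ptpn13), a peptide precursor (Penk), and proteins of vesicles, actin, ubiquitin or the cell cycle (Stxbp6, Lrrc16b, Pdzrn3, Klhl23 and Cables1). Pde5a (chr3:122690811-122899975), the cyclic GMP phosphodiesterase inhibited by sildenafil, had 5.01, 4.87, 6.75 and 5.43 in ESC, 29.3, 24.4, 29.1 and 28.3 in Eo−, and 34.9, 43.0, 37.3 and 37.0 in Eo+. All Eo+ libraries lay above all Eo− libraries. Prkar2b (chr12:31958391-32061296), a regulatory subunit of protein kinase A, had 5.71, 4.22, 3.74 and 7.31 in ESC, 38.2, 16.6, 20.4 and 19.3 in Eo−, and 51.0, 15.6, 20.5 and 18.9 in Eo+. Replicate 1 stood far above the other libraries of both fractions and was not the highest in ESC.

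Irs1, an adaptor of the insulin and IGF receptors, had 3.68, 3.40, 5.48 and 2.50 in ESC, 15.8, 15.4, 16.2 and 16.7 in Eo−, and 19.2, 24.1, 19.4 and 20.7 in Eo+, again without overlap between the fractions. Its relative Irs2 was highest in Eo−, with 33.4, 60.3 and 45.5. Shc4, an adaptor of receptor tyrosine kinases, had the most even fraction means of all members, 7.42 ± 0.758 in Eo− and 7.41 ± 1.48 in Eo+ from 1.61 ± 0.456 in ESC, with a ratio of 1.00. Ptpn13, a large tyrosine phosphatase with PDZ domains, went from 16.7 ± 4.63 in ESC to 79.6 ± 6.34 in Eo− and 89.6 ± 18.3 in Eo+. Penk (chr4:4133531-4141570), the precursor of the enkephalins, had 3.37, 4.67, 5.68 and 2.62 in ESC, 11.66, 20.1, 26.0 and 15.6 in Eo−, and 29.7, 14.5, 37.7 and 18.4 in Eo+. In set 1 the Eo+ value was 2.54 times the Eo− value, the largest ratio of any member in a set, and in set 2 it was 0.723 times.

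Stxbp6, a syntaxin-binding protein of exocytosis, went from 2.39 ± 0.310 in ESC to 19.97 ± 3.48 in Eo− and 16.2 ± 3.70 in Eo+. Pdzrn3, a ubiquitin ligase linked to Wnt signalling in vessels, went from 3.48 ± 1.54 in ESC to 20.6 ± 3.09 in Eo− and 21.1 ± 2.68 in Eo+, and Klhl23, a Kelch protein of ubiquitin ligases, from 8.10 ± 1.76 in ESC to 40.7 ± 2.30 in Eo− and 46.8 ± 2.73 in Eo+. Lrrc16b, a capping protein regulator of actin, went from 1.39 ± 0.257 in ESC to 6.42 ± 0.959 in Eo− and 5.65 ± 0.684 in Eo+, and Cables1, an adaptor of cyclin-dependent kinases, from 2.53 ± 0.419 in ESC to 11.1 ± 0.682 in Eo− and 10.8 ± 2.74 in Eo+.

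Members of transport, metabolism and the extracellular space included the 2 largest rises beside Ldb2. Car14 (chr3:95897768-95904691), a membrane carbonic anhydrase with an extracellular catalytic domain, had 4.44, 3.56, 3.13 and 7.31 in ESC, 87.8, 93.2, 106 and 105 in Eo−, and 107, 130.5, 96.4 and 125 in Eo+. The fractions overlapped, and the gap between the highest ESC and the lowest day 3 library was wide. Its relative Car4, a membrane-anchored carbonic anhydrase, also rose in both fractions but by different amounts, with means of 14.5, 176 and 309, and was called higher in Eo+ vs Eo− (log2 fold change of 0.80, SE 0.16, adjusted p = 0.00115). Heph (chrX:96455359-96574526), the multicopper ferroxidase hephaestin of iron export, had 0.482, 0.321, 0.449 and 0.444 in ESC, 6.43, 5.04, 6.58 and 6.13 in Eo−, and 8.26, 9.23, 10.7 and 7.88 in Eo+. All Eo+ libraries lay above all Eo− libraries.

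Fabp7, the brain-type fatty acid-binding protein, had 0.607, 0.670, 1.33 and 0.567 in ESC, 5.19, 6.57, 4.45 and 7.27 in Eo−, and 4.54, 6.08, 5.13 and 6.88 in Eo+. Slc9a7, a sodium/proton exchanger of the Golgi network, had 2.36, 1.45, 1.65 and 2.05 in ESC, 11.96, 11.9, 14.4 and 12.6 in Eo−, and 8.52, 7.19, 14.3 and 7.27 in Eo+, where replicate 5 of Eo+ matched the Eo− libraries and the other 3 lay below them. Gchfr (chr2:119167773-119172390), the feedback regulator of GTP cyclohydrolase in biopterin synthesis, had 2.12, 2.66, 2.61 and 2.32 in ESC, 11.8, 11.3, 8.58 and 7.29 in Eo−, and 23.6, 5.17, 8.46 and 7.17 in Eo+. The Eo+ mean rests on replicate 1, the other 3 libraries lying between 5.17 and 8.46, and Gch1, the enzyme that it regulates, had low means of 2.91, 4.69 and 3.83. Cyp27a1, the sterol 27-hydroxylase, went from 1.33 ± 0.446 in ESC to 5.57 ± 0.491 in Eo− and 7.42 ± 0.938 in Eo+.

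Of the secreted and matrix members, Mfap2, a microfibril glycoprotein, had 3.20, 3.04, 3.02 and 1.99 in ESC, 11.73, 12.8, 12.8 and 12.5 in Eo−, and 17.7, 13.6, 21.7 and 16.3 in Eo+, without overlap between the fractions. Adamts6, a secreted metalloprotease, went from 1.16 ± 0.443 in ESC to 5.91 ± 0.860 in Eo− and 6.44 ± 2.41 in Eo+, F5, coagulation factor V, from 1.75 ± 0.529 in ESC to 7.87 ± 2.29 in Eo− and 8.85 ± 3.18 in Eo+, and Sel1l3, a membrane protein related to SEL1L, from 2.00 ± 0.401 in ESC to 9.999 ± 0.587 in Eo− and 9.15 ± 3.65 in Eo+. In all 3 genes replicate 5 was the highest Eo+ library.

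The members' equality between fractions was one of means and less so of sets. The Eo+ mean was the higher in 27 members and the Eo− mean in 17, and 13 members had means within 1.1-fold. The most even were Shc4, Pgr, Msi1, Satb1 and Pdzrn3, each with a ratio of 1.00 to 1.02. Counting sets, Eo+ was higher than Eo− in all 4 sets for 12 members, in 3 for 5, in 2 for 13, in 1 for 9 and in none for 5. In 23 members every set kept the fractions within 1.5-fold, in 10 members 1 set did not, and in 11 members 2 sets did not. The number of members over 1.5-fold apart was 8, 8, 10 and 6 in sets 1, 2, 5 and 6, and the median ratio of Eo+ to Eo− was 0.949, 1.09, 1.17 and 0.999, beside 1.06, 1.06, 1.01 and 1.05 for the named loci at 5 or more in both fractions.

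**Figure D4:**
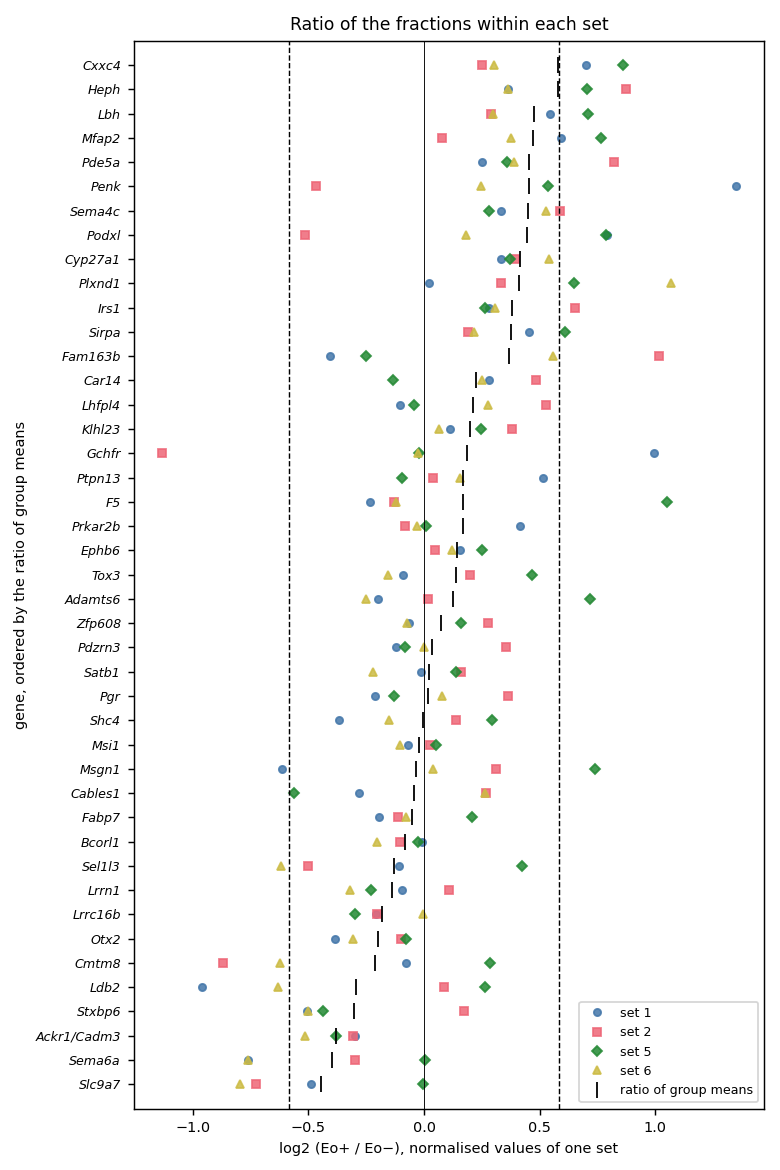
Each row is 1 of 43 members and each symbol gives log2 of its Eo+ over Eo− value within a differentiation set, with the ratio of group means as a black bar and the 1.5-fold window as dashed lines. All black bars lie inside the window, whereas 21 members have at least 1 set outside it.

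In the whole-table fit, 9 of the 44 members were called in Eo+ vs Eo−, 7 higher and 2 lower, beside 42.8% of all loci, 20% higher and 22.8% lower. The rule used these same means, so that nothing is read from the counts. In 8 members the 4 Eo+ libraries did not overlap the 4 Eo− libraries, namely Heph, Sirpa, Lbh, Pde5a, Mfap2, Irs1 and Cyp27a1 with Eo+ above and Ackr1/Cadm3 with Eo− above. Of these, 7 were also called, beside 36.6% of all loci called without overlap. The count of called members fell to 5 without replicate 6 of Eo+ and to 5 without replicate 5 of Eo−.

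Replicates of the members differed by unequal amounts. The members' median coefficient of variation was 20.7% in ESC, 11.2% in Eo− and 20.5% in Eo+, beside 9.97%, 7.91% and 7.90% for the 9853 named loci at 5 or more in both fractions. These loci were not matched to the members' levels, whose median was 2.53 in ESC, and the part of level in the spread was not tested. The largest spread in Eo+ was that of Gchfr (76.0%), followed by Prkar2b (62.0%), Fam163b (49.8%), Cmtm8 (48.1%) and Podxl (45.7%). Replicate 5 was the highest Eo+ library in 20 members and the highest Eo− library in 18. Over the members, the deviations of the 2 fractions of a set from their group means went together, with correlations of 0.567, 0.280, 0.623 and 0.615 in sets 1, 2, 5 and 6, as a description over 44 genes that share libraries.

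Markers of other cells moved with the groups. The feeder fibroblast list was called lower than ESC for 10 of 12 genes in Eo− and for 12 of 12 in Eo+, and its summed level was 212 to 748 in the ESC libraries, 57.4 to 74.8 in Eo− and 51.9 to 73.9 in Eo+. The summed level of a list of 13 visceral and primitive endoderm genes was 13.9 to 18.0 in ESC, 27.1 to 59.6 in Eo− and 422 to 505 in Eo+, and 10 of the 13 were called higher in Eo+ vs Eo−. Of 7 blood genes, 4 were called higher and 0 lower than ESC in Eo−, and 2 higher and 0 lower in Eo+, with summed levels of 3.90 to 5.34 in ESC, 12.7 to 150.1 in Eo− and 36.1 to 160.3 in Eo+. The 2 called in both were Tal1 and Lmo2, factors of blood and vessel precursors. Of 7 neuroectoderm genes, 5 were called lower and 1 higher in each fraction, and the summed levels were 50.6 to 98.1, 65.2 to 126.9 and 47.6 to 87.3. Of 7 trophoblast genes, 2 were called lower and 0 higher in Eo−, and 3 lower and 2 higher in Eo+, with summed levels of 53.7 to 65.7, 18.96 to 76.1 and 44.9 to 147.8. No gene of these lists was at 0 in every library. Their part in the members' levels was not tested. In bulk RNA, more cells that express a gene and more RNA per cell cannot be told apart.

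Loci beside the members were not chosen by the rule and were tested. Of 59 other loci nearest to a member on either side within 100 kb, 35 (59.3%) were called for Eo− against ESC, 40 (67.8%) for Eo+ against ESC and 16 (27.1%) between the fractions, beside 57.8%, 68.5% and 42.8% of all loci. Called higher were 22 (37.3%), 24 (40.7%) and 9 (15.3%), beside 28.2%, 33% and 20%. Rises were seen for Atp13a2, a lysosomal polyamine transporter beside Mfap2, with means of 20.8, 47.2 and 54.4, for the joined locus Ankrd23/Ankrd39 beside Sema4c with 8.43, 16.8 and 16.4, and for Rp2h beside Slc9a7 with 14.0, 24.0 and 28.3. Adamtsl2 beside Fam163b rose mainly in Eo+, with 0.0579, 0.648 and 7.74. These neighbours were chosen after their values were seen. Other neighbours of strong members changed little, such as Anp32e beside Car14 with 309, 319 and 358. Some went the opposite way, such as Pla2g1b beside Msi1, a secreted phospholipase, with 76.1, 39.4 and 10.8.

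Most loci that start on the other strand near a member's start were called in the member's direction. At 10 members a tested locus of the opposite strand began within 5000 bases, with 8 of the 10 overlapping the member head to head. Against ESC, 8 of these partners were called higher and 1 lower for Eo−, and 7 higher and 1 lower for Eo+, beside the background shares of 28.2% and 33% higher. Between the fractions, 1 was called higher and 2 lower in Eo+. The partners called higher rose by log2 fold changes of 1.21 to 3.53 in Eo− and 1.59 to 3.74 in Eo+. Otx2os1, an annotated long noncoding RNA that starts 943 bases from Otx2, had normalised values of 0.258, 0.170, 0.149 and 0.216 in ESC, 0.798, 0.755, 1.28 and 0.690 in Eo−, and 0.499, 0.668, 1.22 and 0.395 in Eo+. Its log2 fold change was 2.13 (SE 0.36, adjusted p = 0.000188) for Eo− against ESC and 1.71 (SE 0.37, adjusted p = 0.000962) for Eo+ against ESC by limma, and -0.42 (SE 0.31, adjusted p = 0.288) in Eo+ vs Eo−. As for Otx2, replicate 5 was its highest library in both fractions.

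Gm4221 beside Zfp608 rose from 0.150 to 0.860 and 0.702 (log2 fold changes of 2.53 and 2.21, adjusted p = 2.82e-06 and 5.87e-06), and A830012C17Rik beside Penk from 0.0454 to 0.150 and 0.165 (1.73 and 1.91, adjusted p = 0.00122 and 0.000360). D430040D24Rik, which starts 38 bases from the assembled start of Sema4c, went from 0.00516 to 0.0503 and 0.0618 (3.53 and 3.74, adjusted p = 0.00113 and 0.000480), values that rest on counts of 0 to 58 per library. XLOC_052892, an unannotated locus beside Sel1l3, went from 0.0250 to 0.189 and 0.0954 and was also lower in Eo+ vs Eo− (log2 fold change of -1.02, adjusted p = 0.0150). The partner of Cxxc4, Gm26691/Mir1895, had means of 0.0376, 0.00953 and 0.0351 and was called lower in Eo− vs ESC (adjusted p = 0.00601), with counts of 0 to 40 per library. Gm6277 beside Cables1 went from 0.0276 to 0.0840 and 0.0903 and was called higher in both fractions (adjusted p = 0.0174 and 0.0101). Gm16548 beside F5 went from 0.0326 to 0.0649 and 0.0645, at the edge of the threshold (adjusted p = 0.04998 in Eo− and 0.0529 in Eo+). Hsf3, a heat shock factor gene beside Heph, was the partner called lower in Eo+ vs ESC (0.142 to 0.0385, log2 fold change of -1.97, adjusted p = 0.00106), against a rise of Heph of 21.3-fold. All 10 partners stayed under 1 in every group, and at day 3 their level was 0.103% to 2.19% of that of the member, where the part of reads from the wrong strand was not tested. When a mean FPKM over 0.1 in at least 1 group was required, computed here from all counted loci and their summed exon lengths, 2 of the 10 partners passed, so that the partners called against ESC fell from 9 to 2 for Eo− and from 8 to 2 for Eo+. The methods name this same threshold for the deposited table, of which 77.7% of loci passed it as computed here. None was called when 1 CPM in 4 libraries was required, a level above the group means of all 10.

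**Figure D5:**
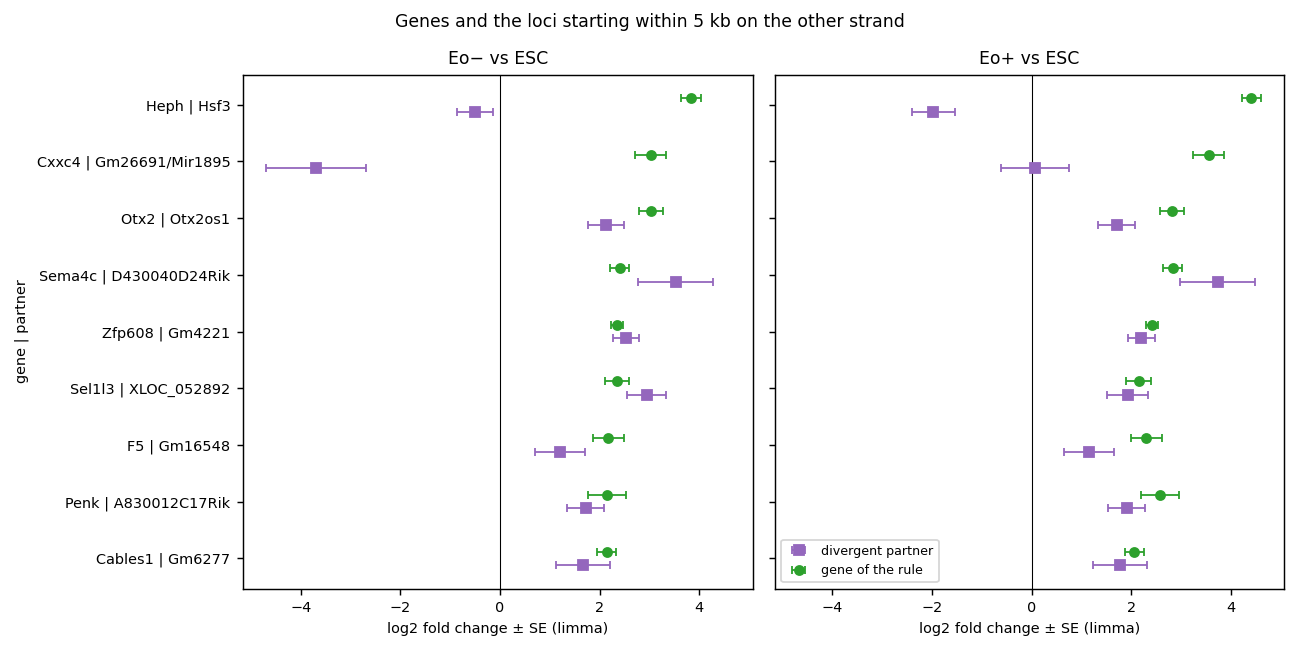
Points are limma log2 fold changes with their SE for 9 members (green circles) and the locus that starts within 5 kb on the opposite strand (purple squares), with Eo− against ESC on the left and Eo+ against ESC on the right, the members' values being a description. Apart from the partners of Heph and Cxxc4, all drawn partners lie to the right of 0 in both panels.

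Family relatives gave a second view of loci that the rule did not choose. For 41 members, 207 other tested loci of the same gene family or receptor pair were collected. Of these, 105 (50.7%) were called higher than ESC for Eo−, 113 (54.6%) for Eo+ and 86 (41.5%) for both, beside 31.7%, 37.7% and 25.8% of 16212 named protein-coding loci. In Eo+ vs Eo−, 74 (35.7%) were called higher and 45 (21.7%) lower, beside 23.9% and 21.1%. The relatives were chosen with the members known, those given by name here and above after their values were seen, and large families hold more of them than small ones. Among them, Adamts15, a metalloprotease of the family of Adamts6, had means of 2.97, 13.9 and 21.0, Shc2, of the family of Shc4, 8.11, 23.9 and 28.0, and Klhl13, of the family of Klhl23, went the opposite way with 317, 36.9 and 31.6.

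The members were spread over 15 chromosomes, with 6 on chromosome 6 as the most on any. Their loci spanned a median of 49.96 kb, beside 23.7 kb for all named loci, and 15 (34.1%) spanned over 100 kb, beside 14.9% of all. The median summed exon length was 5541 bases beside 4207, and the largest transcript had a median of 11 exons beside 8. The level limit of the rule is in a unit not divided by length, and no such limit was set for all named loci. All members hold a protein-coding gene, beside 88.5% of all named loci. The part of the rule in these differences was not tested, and nothing is read from them. A locus of the opposite strand that was tested overlapped 15 members.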

How the data were processed

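RNA-seq was analysed for 12 libraries, 4 each of ESC, Eo− and Eo+. Per the submitters' processing notes and methods, the authors aligned read pairs to mm10 with STAR, assembled transcripts with Cufflinks 2.2.1 and counted reads per locus by strand with HTSeq 0.6.1, and deposited raw counts for 80012 loci. The deposited normalised table holds 22187 loci kept by the authors' filter, which the methods give as a mean FPKM over 0.1 in a condition, and its values, a normalised signal per locus, are the counts divided by 1 constant per library (edgeR). Levels are given in that unit, "per kilobase" after division by summed exon length. Of each library, 22.4% to 26.2% of counted and tallied reads were not unique and 2.65% to 3.60% lay outside any locus, and these stayed out of library sizes. The transcript coordinates came from the deposited assembly, with gene classes from GENCODE M21.

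Counts of the 22187 loci were fitted with limma 3.58.1 (voom, TMM from edgeR 4.0.16, all 12 libraries, no block), and a locus was called at a Benjamini-Hochberg adjusted p of 0.05 or less over all loci. DESeq2 1.42.0 and edgeR's quasi-likelihood test were alternatives. The code was tested on simulated data. Replicate numbers mark differentiation sets, and over 13896 loci the deviations of Eo− and Eo+ from their group means correlated within a set at 0.666, 0.333, 0.376 and 0.409, so that the numbers pair the fractions, whereas those of ESC with Eo− ran from -0.16 to 0.43 and with Eo+ from -0.11 to 0.16. Floors cover counting error only.

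The members and lists were chosen with earlier results of these data known. Roles and family relatives were assigned with the members known. Members were named for the highest ratios, the highest levels per kilobase, a place in a fixed list, the most equal fraction means, the largest spread and nearness to a threshold, called opposite-strand partners were named, and the other members are given by group means, except 1 that is not reported here with its partner. No member was a long noncoding RNA.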

Additional observations from a re-analysis of the deposited data

Results flagged for a closer look

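Of 132 groups of 4 libraries (44 members in 3 groups), 7 held a library whose gap to its nearest neighbour was over Dixon's 95% limit, taken as a share of the group's range, where chance gives about 1 in 20. In ESC, replicate 5 stood high for Fabp7, a fatty acid-binding protein (1.33 against 0.567 to 0.670 in the other libraries), and for F5, coagulation factor V (2.54 against 1.48 to 1.49). The same library stood low for Plxnd1, a semaphorin receptor (4.46 against 4.93 to 5.00). Replicate 6 of ESC stood low for Pgr, the progesterone receptor (1.09 against 1.56 to 1.61), and for Mfap2, a microfibril protein (1.99 against 3.02 to 3.20).

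Among the fractions, replicate 1 of Eo+ stood high for Prkar2b, the protein kinase A subunit, with 51.0 against 15.6 to 20.5. Replicate 2 of Eo+ stood high for Lrrc16b, the actin capping regulator, with 6.67 against 5.20 to 5.41.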

How the results depend on the processing

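The number of loci that meet the rule depended on its limits: 26 with day 3 means of 10 or more, 115 at 3 times ESC or more, 10 at 6 times or more, 28 within a ratio of 5 to 4 and 77 within 2-fold, against 44. Other scalings gave 42 (TMM), 51 (library totals) and 35 (DESeq2 size factors), and leaving out 1 library gave 41 to 54, with 26 of the 44 members kept in all 12 such sets. With 1 CPM in 4 libraries required, 8358 loci were called against ESC for Eo− and 9717 for Eo+, fewer loci being tested. With a 2-fold change required as well, 6802, 9163 and 4854 loci were called for Eo− against ESC, Eo+ against ESC and between the fractions, and the counts below keep this order. Of the 32 neighbours within 20 kb, 22 (68.8%), 22 (68.8%) and 9 (28.1%) were called, against 35 (59.3%), 40 (67.8%) and 16 (27.1%) of 59 within 100 kb.

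Partners on the opposite strand were called in 9, 8 and 3 cases, against 2, 2 and 0 with a mean FPKM over 0.1, which 2 of the 10 passed, and in 0, 0 and 0 with 1 CPM in 4 libraries, alternatives chosen after the data were seen. Members called in Eo+ vs Eo− numbered 5 by edgeR, against 9, and the cause was not tested. Leaving out 1 library gave 11698 to 13044, 14489 to 15223 and 8151 to 9862 called loci in the 3 comparisons, 44 to 44, 44 to 44 and 5 to 12 called members, 31 to 36, 36 to 41 and 12 to 22 called neighbours, and 8 to 9, 7 to 8 and 1 to 4 called partners. The 1 called partner was left without replicate 1 of Eo+.

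With the replicate block, 13612, 15799 and 10704 loci, 44, 44 and 11 members, 37, 44 and 21 neighbours and 9, 8 and 3 partners were called. No count moved by over 1.5 times under the block.

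The lowest library count of a member was 207, while the partners of Sema4c and Cxxc4 each had at least 1 library at 0 reads. The effect of depth on their calls was not tested.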
